A study of Homo sapiens with 3 samples.

Results

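The proteasome genes of HT29, a widely used cell line from a human colon adenocarcinoma, were compared on 3 culture substrates. Members were the genes with a probe whose symbol begins with PSMA, PSMB, PSMC, PSMD, PSME, PSMF or PSMG and a digit, without PSMB8, PSMB9 and pseudogenes. This rule selected 52 of the 21610 genes that could be named on the array. Of these, 46 encode proteasome subunits, assembly chaperones, activators or the inhibitor. The other 6 carry the letters of a proteasome gene only. They are the coding genes PSMC3IP and PSME3IP1 and the 4 long noncoding RNAs PSMA3-AS1, PSMD6-AS2, PSMD7-DT and PSMG3-AS1.

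The substrates were tissue culture polystyrene (TCP, the control, titled 2D), a dried chitosan coating (CS) and the same coating with hyaluronan crosslinked onto it (CSHA). Chitosan is a polysaccharide made from chitin, and hyaluronan is a polysaccharide of the extracellular matrix that binds CD44. The medium, RPMI with fetal bovine serum, was shared by all groups, and the duration of the cultures used for the arrays is not given in the sources used here. Each substrate was represented by 1 single-colour array of total RNA, all on 1 slide, so differences between substrates could not be tested against replicates and are given without p-values. The genes of a complex are not replicates of a culture, and no test was run over them.

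The proteasome degrades proteins that carry chains of ubiquitin, and with them it controls the cell cycle, protein quality and antigen presentation. Its core particle is a barrel of alpha and beta subunit rings with the catalytic sites inside. A regulatory cap sits at the end of the barrel. The base of the cap holds a ring of ATPases, which unfold substrates and push them into the core, and scaffold proteins that bind ubiquitin. The lid of the cap carries a deubiquitinase, which removes the ubiquitin chain. Core and cap are built with the help of separate chaperones. Most of the subunits are needed in every cell. When the activity of the proteasome is too low, the transcription factor NFE2L1 raises the genes of core and cap together.

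Levels are given as the log2 of the processed spot signal minus the log2 of the array's 75th percentile, so that a level of 0 is the 75th percentile of the probes on that array. That percentile was a signal of 354 for TCP, 423 for CS and 337 for CSHA. Between 48.6% and 51.1% of the 50599 probes were well above background per array. Every difference is a log2 difference between these levels, and the value after ± is its SD as estimated from probes printed at 10 spots of an array. This SD, with a median over the members of 0.0539 for CS minus TCP and 0.0582 for CSHA minus TCP, holds the error of a spot and not the spread between cultures. Of 9 genes of colon epithelium, the labelled cell type, 9 were well above background on all arrays. Their summed signal was 974 to 1070 times the 75th percentile. KRT18 was the brightest of them on TCP, with a level of 9.30, and CDH17 the dimmest, with -3.42. The latter is near the -3.40 of the endothelial gene VWF, so passing background does not by itself set the cell type. The collagen genes COL1A1, COL1A2 and COL3A1 and the stromal genes DCN and LUM were not well above background on any array. Of 12 markers of stroma, endothelium and immune cells, 7 were above background on TCP, 5 on CS and 6 on CSHA, with summed signals of 3.54, 4.39 and 6.06 times the 75th percentile. The higher sum on CSHA moved with the monocyte genes CD14 and CD68, which were 1.04 and 1.01 above TCP. No other measured marker of the list rose by as much. The CSHA difference from TCP was -1.75 ± 0.17 for CD3E and 0.05 ± 0.17 for PTPRC, and VIM was well above background on TCP alone. The part of these markers in the results for proteasome genes was not tested. In RNA of whole cultures, fewer cells of a type and less RNA per cell cannot be told apart.

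Nearly all genes of core and cap were well above background. Of the 46 proteasome genes, 44 were so on all 3 arrays, which included all 17 cap genes and 15 of the 17 core genes. The exceptions were PSMA8, an alpha subunit of the testis that was not well above background on any array, and PSMB11, a beta subunit of the thymus cortex that passed on CSHA alone. Compared with TCP, the core genes as a whole were slightly higher on CS at their brightest probes, and several ATPases and lid subunits of the cap were lower on CSHA. The median difference of the core was 0.08 for CS minus TCP and 0.01 for CSHA minus TCP. That of the cap was -0.04 and -0.08. The signs of these medians depend on the scaling, since the cap was at 0.037 on CS with another background correction (normexp). On CSHA the cap was at 0.36 with the arrays scaled to 7 spike-in control probes, and the core was at -0.10 with cyclic loess normalization. The core median was therefore above the cap median by 0.12 on CS and by 0.09 on CSHA. Against CS, the CSHA medians were -0.08 for the core and -0.10 for the cap, a gap of 0.02. The spread of these gaps between cultures is unknown. The median over all genes compared was itself 0.04 for CS minus TCP and 0.13 for CSHA minus TCP. Relative to it, the core stood at 0.04 on CS and -0.11 on CSHA, and the cap at -0.08 and -0.20.

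**Figure D1:**
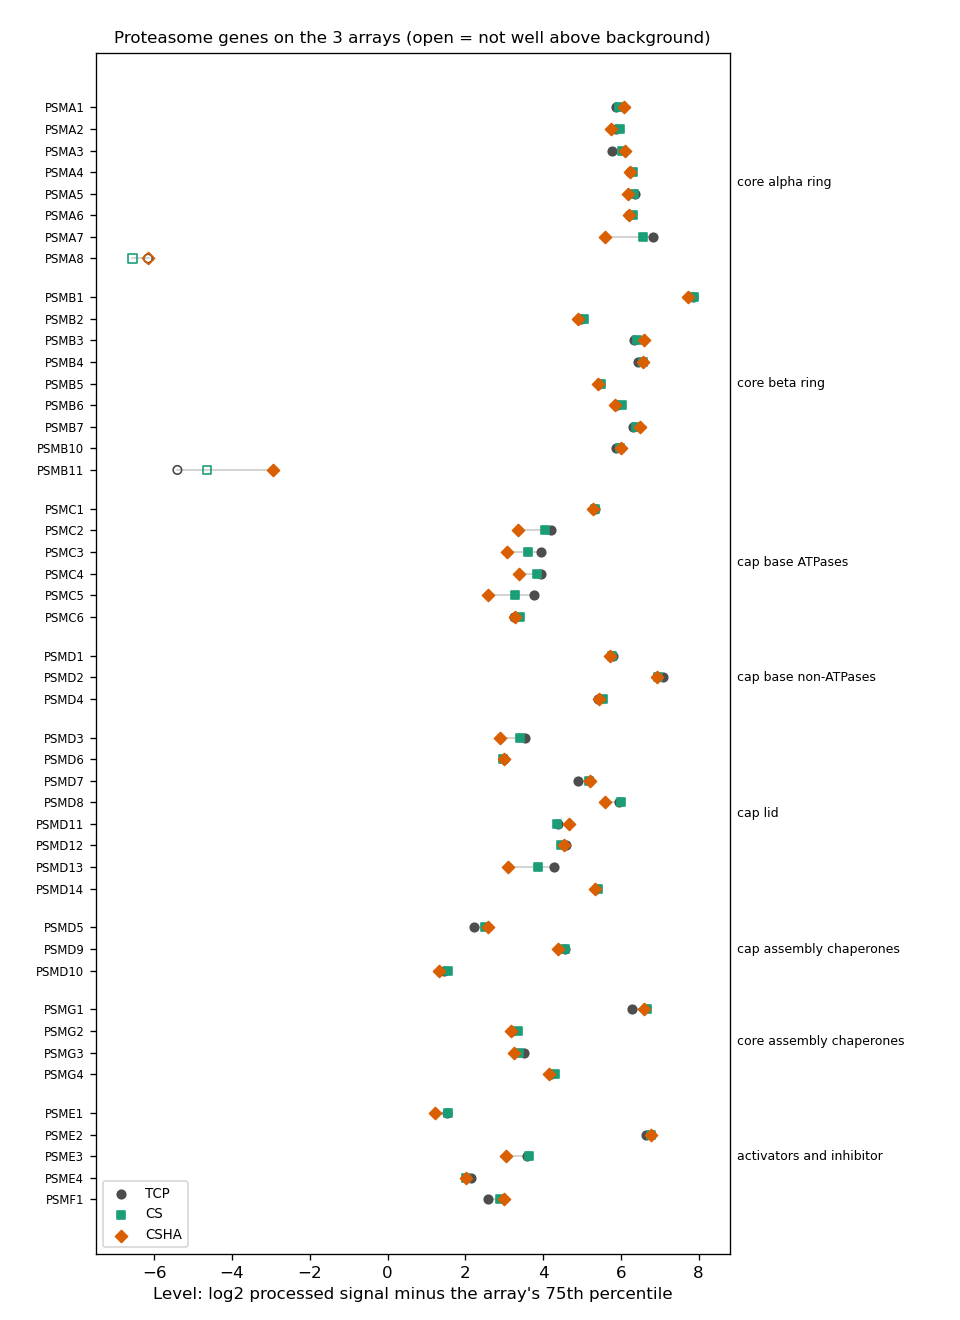
Levels of the 46 proteasome genes on the TCP, CS and CSHA arrays. The x axis is the log2 processed signal minus the log2 75th percentile of the array, each row is 1 gene at its brightest probe, and open symbols are not well above background. The 3 symbols of most genes lie on top of each other, while PSMA7, PSMC2, PSMC3, PSMC5, PSMD3 and PSMD13 have their CSHA symbol clearly to the left. Positions of different genes are not comparable as RNA amounts, since probes differ in brightness.

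The counts show the same gap between core and cap. For CS minus TCP, 2 of 15 core genes (13.3%) and 11 of 17 cap genes (64.7%) were lower, against 43.2% of the 14462 genes compared. For CSHA minus TCP, 7 of 16 core genes (43.8%) and 12 of 17 cap genes (70.6%) were lower and the others higher, where 38.3% of 14624 genes were lower and 61.7% higher. None of the 44 proteasome genes compared was 1.5-fold higher or lower on CS than on TCP, where 4.11% of all genes were higher and 5.03% lower by that much, and 1.92% were lower by 2-fold. On CSHA, 1 of 16 core genes (6.25%) and 5 of 17 cap genes (29.4%) were at least 1.5-fold lower than on TCP, together 6 of 45 proteasome genes (13.3%), against 11.2% of all genes. With spike-in scaling, which places all genes higher on CSHA, 3 of these 45 were lower by that much. The share over all proteasome genes is thus near that of all genes, and that of the cap is above it. At least 2-fold lower were PSMA7, PSMC5 and PSMD13, 3 of 45 genes, where the share over all genes was 3.98%, and 0 were so with spike-in scaling. A difference of more than 2 spot SDs from TCP was found on CS for 3 core genes upwards and 1 downwards, and for 3 cap genes upwards and 7 downwards. On CSHA it was found for 7 core genes upwards and 4 downwards, and for 2 cap genes upwards and 8 downwards. The share over all genes was not computed for this rule, so these counts cannot be read as a trait of the members.

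**Figure D2:**
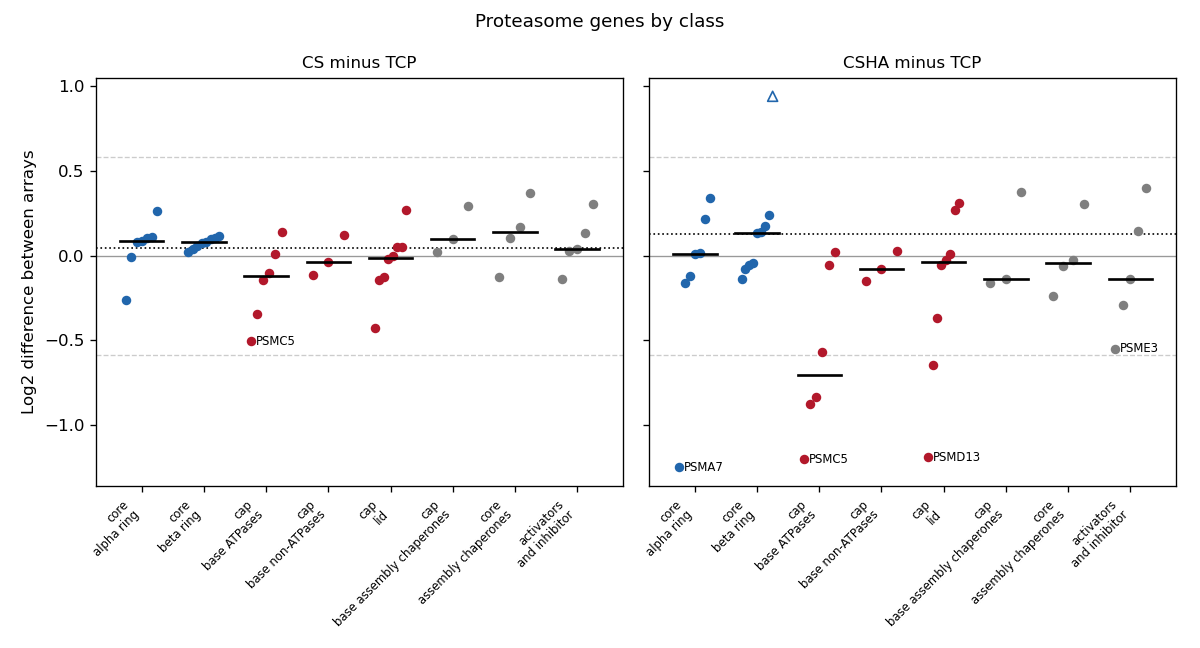
Log2 differences of each proteasome gene from TCP, on CS (left) and CSHA (right), by class of subunit, with blue points for core genes, red for cap genes and grey for the rest. Black bars are the medians of the classes, the dotted line is the median of all genes compared, the dashed lines mark 1.5-fold, and the open triangle is PSMB11, a lower bound. The cap ATPases have the lowest median on CSHA, -0.70, with PSMC5 at -1.20. The cap median is below 0 here and at 0.36 with spike-in scaling.

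The ATPases of the cap base were the class with the lowest median on both membranes. The median of the 6 genes, which encode the ring that unfolds substrates, was -0.12 on CS and -0.70 on CSHA. Relative to the median of all genes it was -0.17 and -0.83. At least 1.5-fold lower on CSHA than on TCP were 3 of the 6, where 11.2% of all genes were so.

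PSMC5 (NM_002805) had a level of 3.78 on TCP, 3.27 on CS and 2.58 on CSHA. It thus stepped down from TCP over CS to CSHA, with differences from TCP of -0.51 ± 0.05 and -1.20 ± 0.06, the latter 2.30-fold lower. PSMC3 (NM_002804) had a level of 3.95 on TCP, 3.61 on CS and 3.08 on CSHA. Its order of arrays was the same, and the differences from TCP were -0.34 ± 0.05 and -0.88 ± 0.06. PSMC2 (NM_002803), with levels of 4.19, 4.05 and 3.36, was 1.10-fold lower than TCP on CS and 1.79-fold lower on CSHA. PSMC4 (NM_006503) was just short of the 1.5-fold mark, with levels of 3.94, 3.84 and 3.37 and a CSHA difference of -0.57 ± 0.06. The remaining ATPases lay closer to TCP. PSMC1 had levels of 5.34, 5.34 and 5.28, and PSMC6 had 3.26, 3.40 and 3.29. Their CSHA differences of -0.05 ± 0.06 and 0.02 ± 0.06 lay within the spread among spots at their brightest probes. A second probe of PSMC1 gave -0.22 ± 0.07.

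The other proteins of the base, which are not ATPases, were nearly level across the substrates at their brightest probes. PSMD1, a scaffold, had levels of 5.81, 5.77 and 5.73 on TCP, CS and CSHA. PSMD2, the scaffold that docks ubiquitin shuttles, had levels of 7.08, 6.96 and 6.93. PSMD4, a receptor of ubiquitin chains, had levels of 5.42, 5.55 and 5.45. Of the 3 genes PSMD2 was lowest against TCP on both membranes, with -0.12 ± 0.05 and -0.15 ± 0.06 (0.29 on CSHA with spike-in scaling), and PSMD4 was highest, with 0.12 ± 0.05 and 0.02 ± 0.06. No member of this class differed by 1.5-fold from TCP. A second probe of PSMD2 gave -0.30 ± 0.05 on CS and -0.14 ± 0.06 on CSHA.

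The lid was divided. PSMD13 (NM_175932), a structural subunit of the lid, had a level of 4.29 on TCP, 3.86 on CS and 3.098 on CSHA. It was lower on CS by less than on CSHA, with differences of -0.43 ± 0.05 and -1.19 ± 0.06, the latter 2.28-fold. PSMD3 (NM_002809), another structural subunit, had levels of 3.54, 3.40 and 2.89, and a CSHA difference of -0.65 ± 0.06. PSMD7 (NM_002811), the partner of the deubiquitinase, went the other way, with levels of 4.91, 5.18 and 5.22. Its differences of 0.27 ± 0.02 and 0.31 ± 0.02 were the highest of the lid on either membrane, and its probe was printed at 10 spots. PSMD14 (NM_005805), the deubiquitinase itself, was level at 5.36, 5.41 and 5.33. PSMD8 was lower on CSHA alone, with levels of 5.96, 6.01 and 5.59, and PSMD11 was higher on CSHA alone, with 4.39, 4.37 and 4.66. PSMD6 and PSMD12 differed from TCP on CSHA by 0.01 ± 0.02 and -0.05 ± 0.06. Because of this division the median of the 8 lid genes was only -0.01 on CS and -0.04 on CSHA. Even so, 2 of them were at least 1.5-fold lower on CSHA, where 11.2% of all genes were so.

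Promoters were searched for 3 motifs, because genes of core and cap are known to share regulators. The motifs were TGACNNNGC, the element bound by NFE2L1 or NFE2L2 with a small Maf protein, CCAAT, the CCAAT box, and CCGGAAG, an element of the ETS family. Each was searched on both strands from 250 bases before to 50 bases after the transcription start, and overlapping matches of different motifs were each counted. RefSeq promoters (GRCh38.p14) were given for 40 of the 46 genes, without PSMA7, PSMB1, PSMB6, PSMB7, PSMD4 and PSMG3. TGACNNNGC was found for 2 of 13 core genes (15.4%), PSMA4 and PSMB3, for 5 of 16 cap genes (31.3%) and for 14 of all 40 (35.0%), against 16.1% of 27305 genes in the table. The 7 remaining genes that held it were among the 11 chaperones, activators and the inhibitor. CCGGAAG was found for 2 of 13 core genes (15.4%), 9 of 16 cap genes (56.3%) and 15 of all 40 (37.5%), against 12.2%. CCAAT was found for 8 core genes, 8 cap genes and 19 of all 40 (47.5%), against 39.7%. By promoter in place of gene, the shares over the whole table of 35116 were 13.3% for TGACNNNGC, 10.3% for CCGGAAG and 34.6% for CCAAT.

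Of the 5 cap genes that were at least 1.5-fold lower on CSHA, 4 held a match to TGACNNNGC or CCGGAAG, and PSMC3 held none. Over the whole cap, 13 of 16 genes (81.3%) held one or the other, against 25.9% of 27305 genes in the table. Within the cap, the lower genes were thus not set apart by it. The 150 bases before the transcription start of these 4 are shown beside those of PSMB3, a core gene that was not lower, so that both kinds can be set side by side. All 5 lie on the plus strand of GRCh38.p14. PSMC5 is at chr17:63827571-63827720, PSMC2 at chr7:103347493-103347642, PSMD13 at chr11:236826-236975, PSMD3 at chr17:39980657-39980806 and PSMB3 at chr17:38752591-38752740. Capitals mark a match to TGACNNNGC in PSMC5 (on the minus strand), PSMD3 and PSMB3, and to CCGGAAG in PSMC2 (on the minus strand) and PSMD13.
PSMC5: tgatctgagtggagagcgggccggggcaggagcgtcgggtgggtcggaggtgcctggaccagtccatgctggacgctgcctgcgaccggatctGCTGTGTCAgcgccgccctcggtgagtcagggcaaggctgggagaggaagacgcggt
PSMC2: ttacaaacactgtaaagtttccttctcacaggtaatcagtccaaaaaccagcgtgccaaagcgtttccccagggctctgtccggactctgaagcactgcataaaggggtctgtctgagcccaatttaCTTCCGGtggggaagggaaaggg
PSMD13: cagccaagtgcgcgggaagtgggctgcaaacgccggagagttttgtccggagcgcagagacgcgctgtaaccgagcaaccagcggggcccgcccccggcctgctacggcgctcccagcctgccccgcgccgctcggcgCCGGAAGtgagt
PSMD3: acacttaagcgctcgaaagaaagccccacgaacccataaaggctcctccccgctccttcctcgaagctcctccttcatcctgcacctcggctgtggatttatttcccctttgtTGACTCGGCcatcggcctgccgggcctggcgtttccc
PSMB3: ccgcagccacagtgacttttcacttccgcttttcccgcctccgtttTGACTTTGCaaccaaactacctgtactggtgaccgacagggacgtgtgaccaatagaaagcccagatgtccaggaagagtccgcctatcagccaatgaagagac
Both motifs were found in genes that were lower and in genes that were not. PSMB3, with TGACNNNGC, had a CSHA difference of 0.24, while PSMC5 and PSMD3, with the same letters, had -1.20 and -0.65. Among the cap genes with CCGGAAG, PSMC2, PSMD8 and PSMD13 were lower on CSHA, PSMD7 was higher, and PSMC1, PSMC6, PSMD6, PSMD12 and PSMD14 differed from TCP by less than 2 spot SDs. A match of letters is a description of the sequence and does not show that a factor binds there.

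In the alpha ring, which gates the entry to the core, PSMA7 stood apart. PSMA7 (NM_002792) had a level of 6.84 on TCP, 6.58 on CS and 5.59 on CSHA. Its differences from TCP were -0.26 ± 0.05 and -1.25 ± 0.06, so that the level on CSHA was 2.38-fold lower than on TCP and was the lowest difference of any proteasome gene. The remaining 6 measured alpha genes lay between -0.16 and 0.34 on CSHA. PSMA3 was highest of these on both membranes, with levels of 5.77, 6.03 and 6.11 and differences of 0.27 ± 0.05 and 0.34 ± 0.06. The median of the ring was 0.09 on CS and 0.01 on CSHA.

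In the beta ring, which holds the catalytic sites, the genes measured on all arrays lay between -0.14 and 0.24 of TCP on CSHA at their brightest probes. Beyond 2 spot SDs on CSHA, 5 of 9 beta genes were higher than TCP, PSMB11 included, and 1 was lower, with no share over all genes computed. On CS all 8 measured beta genes were higher than on TCP at their brightest probes, where 56.8% of all genes were higher. Their differences were 0.02 to 0.11, with PSMB1 lowest and PSMB4 highest. Of these 8, only PSMB4 exceeded 2 spot SDs. A second probe of PSMB2 was lower on CS than on TCP, with -0.22 ± 0.05. PSMB5, which carries the chymotrypsin-like site, had levels of 5.45, 5.49 and 5.41 on TCP, CS and CSHA. PSMB6, the caspase-like subunit, had levels of 5.91, 6.02 and 5.86. PSMB7, the trypsin-like subunit, had levels of 6.33, 6.39 and 6.50. The catalytic genes therefore stayed within 0.18 of TCP on both membranes. PSMB10, which replaces PSMB7 in the interferon-induced form, had levels of 5.87, 5.97 and 6.01 and was not set apart from them. PSMB1 had levels of 7.87, 7.89 and 7.74, and its CSHA difference of -0.14 ± 0.06 (0.30 with spike-in scaling) was the lowest of the ring, while PSMB3, with levels of 6.34, 6.42 and 6.59, had the highest of the genes measured on all arrays, 0.24 ± 0.06. The interferon-induced subunits PSMB8 and PSMB9, which the rule leaves out, differed from TCP by 0.17 ± 0.16 and -0.19 ± 0.16 on CS and by 0.19 ± 0.17 and 0.07 ± 0.17 on CSHA, all within 2 spot SDs.

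PSMB11 was the 1 proteasome gene at least 1.5-fold higher on CSHA than on TCP, where 11.5% of all genes were so. Its brighter probe had levels of -5.41 on TCP and -4.64 on CS, both not well above background, and of -2.94 on CSHA. Against the lowest level well above background on the other array, PSMB11 was at least 1.92-fold higher on CSHA than on TCP. Its second probe never passed that mark and differed from TCP by -0.08 on CSHA, so the higher value rests on 1 spot. At least 2-fold higher than TCP was 0 of 45 proteasome genes on CSHA and 0 of 44 on CS, where the shares over all genes were 3.02% and 1.36%.

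The comparison of CSHA with CS asked what went with the hyaluronan graft. Most proteasome genes, and all cap ATPases, were lower on CSHA than on CS, but many by little. The ATPases PSMC1 and PSMC6, with -0.06 ± 0.06 and -0.12 ± 0.06, and 20 of the 45 genes in all lay within 2 spot SDs. Of 45 proteasome genes, 31 (68.9%) were lower on CSHA than on CS, and 14 were higher, against 41.5% lower and 58.5% higher of the 14597 genes compared. At least 1.5-fold lower were 5 (11.1%), against 7.33% of all genes, and none of them was 2-fold lower, against 2.15%. With spike-in scaling, which moved the median of all genes for CSHA minus CS from 0.07 to 0.46, 1 gene was 1.5-fold lower. With normexp, quantile or cyclic loess normalization 1 was 2-fold lower. The 5 genes at least 1.5-fold lower were PSMA7 with -0.99 ± 0.06, PSMD13 with -0.76 ± 0.06, PSMC5 with -0.70 ± 0.06, PSMC2 with -0.69 ± 0.06 and PSME3 with -0.59 ± 0.06. The median of the 6 ATPases was -0.50. The gene higher by 1.5-fold and by 2-fold was PSMB11 alone, where 7.68% and 2.27% of all genes were so. PSMD11 was the cap gene highest on CSHA against CS, with 0.29 ± 0.06. Since CSHA enters this comparison and that with TCP, the counts are not independent of each other.

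The assembly chaperones showed smaller differences at their brightest probes. PSMG1, which starts the alpha ring together with PSMG2, had levels of 6.29 on TCP, 6.66 on CS and 6.59 on CSHA. It was higher than TCP on both membranes, by 0.37 ± 0.05 and 0.30 ± 0.06. PSMG3, which acts together with PSMG4 in the same step, had levels of 3.50, 3.37 and 3.26 and was the lowest of this class on both, with a CSHA difference of -0.24 ± 0.06 (0.20 with spike-in scaling). PSMD5, PSMD9 and PSMD10 assist the assembly of the cap base. PSMD5 was higher on both membranes at its brightest probe, with levels of 2.22, 2.51 and 2.59, while a dimmer probe gave -0.0028 on CSHA. PSMD9 was level on CS and -0.16 ± 0.06 on CSHA (0.28 with spike-in scaling), with levels of 4.55, 4.58 and 4.39. The median of these chaperones at their brightest probes was 0.10 on CS and -0.14 on CSHA, where that of the ATPases they help to place was -0.12 and -0.70. Dimmer probes of PSMD10 and PSMD9 gave -0.70 ± 0.13 and -0.61 ± 0.17 on CSHA. The gap between these chaperones and the ATPases on CSHA thus depends on the probe. POMP, the maturation factor of the core, had a CSHA difference of -0.04 ± 0.07.

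Among the alternative caps, PSME1 and PSME2 form the activator that interferon induces, and PSME3 forms a nuclear activator. PSME3 had levels of 3.60, 3.64 and 3.05 on TCP, CS and CSHA, so it was lower on CSHA alone, by a difference of -0.55 ± 0.06 from TCP. PSME2 had levels of 6.64, 6.78 and 6.79 and PSME1 had 1.52, 1.55 and 1.23, so the genes of 1 activator lay on opposite sides of TCP on CSHA. PSME4, an activator linked to chromatin, had levels of 2.15, 2.02 and 2.02, and its CS difference of -0.14 ± 0.07 was the lowest of this class (0.0641 at its second probe). PSMF1, the inhibitor of the core, had levels of 2.60, 2.90 and 2.996 at its brightest probe, the highest differences of this class with 0.30 ± 0.06 and 0.40 ± 0.06, but its other probes differed from that, as given for the probes of 1 gene.

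Several genes had more than 1 measured probe, and these did not always give the same difference. Of 13 proteasome genes with at least 2 probes well above background on all arrays, the 2 brightest probes were 1.5-fold or more apart for CSHA minus TCP in 3 (23.1%), where 910 of 3500 genes over the whole array were so. Their differences had opposite signs in 5 (38.5%), against 39.6%. For CS minus TCP the signs were opposite in 8 of 13 (61.5%), against 34.1%, and the second probe was the lower one in 10 (76.9%), against 60.2%. The direction on CS of genes with several probes thus often depended on the probe. Most ATPase probes were dimmer than those of core genes measured on all arrays, and core and cap were not matched for level. For CSHA minus TCP the second probe was the lower one in 9 of 13 (69.2%), against 60.7%. The median there was -0.08 at the brightest and -0.36 at the second probe, where over the 3500 genes it was 0.14 and 0.02. For PSMB2 the brighter probe gave -0.08 ± 0.06 and the other -1.03 ± 0.06, and for PSMD14 they gave -0.03 ± 0.06 and -0.82 ± 0.08. For PSMD1 they gave -0.08 ± 0.06 and 0.15 ± 0.06. Statements that PSMB2, PSMD14, PSMC1 and PSMD1 were near TCP therefore hold for 1 of their probes. For PSMF1 the 4 probes gave 0.40, -0.52, -1.53 and -0.18, so no direction can be given for the inhibitor. For PSMA1, whose levels at the brightest probe were 5.87, 5.95 and 6.08, that probe gave 0.22 ± 0.06 and a dim probe for another transcript gave -0.36 ± 0.17. For PSMC2 both probes were lower on CSHA, with -0.84 ± 0.06 and -0.53 ± 0.13. PSMA7, PSMC3, PSMC4, PSMC5, PSMD3 and PSMD13 had 1 named probe each. Probes without a gene name could include others of these genes. Of the 46 genes, 21 have a named pseudogene, whose RNA a probe could also bind. The part of pseudogenes was not tested.

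**Figure D3:**
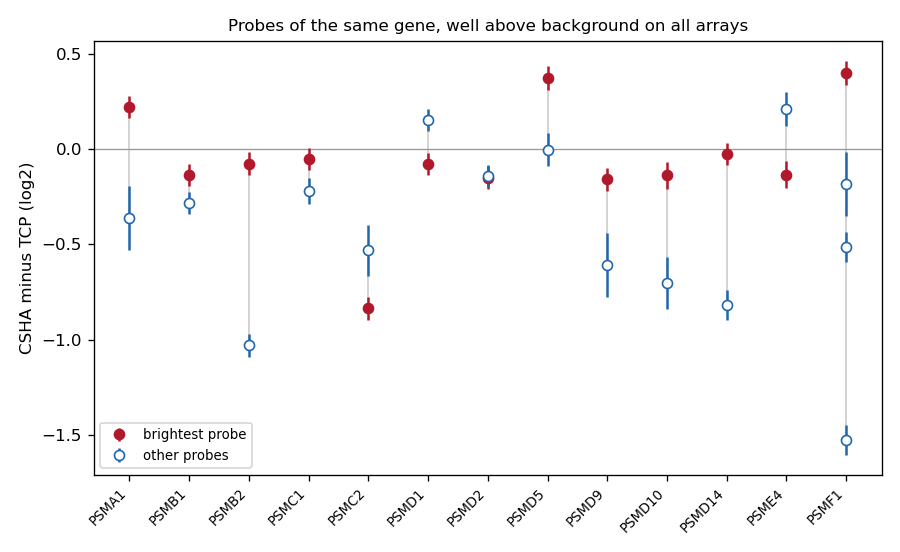
CSHA minus TCP differences (log2) of every probe well above background on all arrays, for the 13 proteasome genes with 2 or more such probes. Filled red points are the brightest probe, open blue points the others, and bars are ± 1 SD expected from the spread among spots. The probes of PSMB2, PSMD14 and PSMF1 lie furthest apart, and those of PSMD2 coincide.

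The lower medians on CSHA relative to all genes were found under each way of normalizing the arrays. Settings that only shift each array by a constant, such as other percentiles or spike-in scaling, leave these values nearly unchanged by construction. They are therefore no check on them. Normexp, quantile and cyclic loess normalization and the deposited values could move them. For CSHA minus TCP relative to the median of all genes, the core lay between -0.12 and -0.04, the cap between -0.23 and -0.17 and the ATPases between -0.84 and -0.78. The median difference itself depended on the scaling, and with 7 spike-in probes as the reference the median of all genes on CSHA moved from 0.13 to 0.57.

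**Figure D4:**
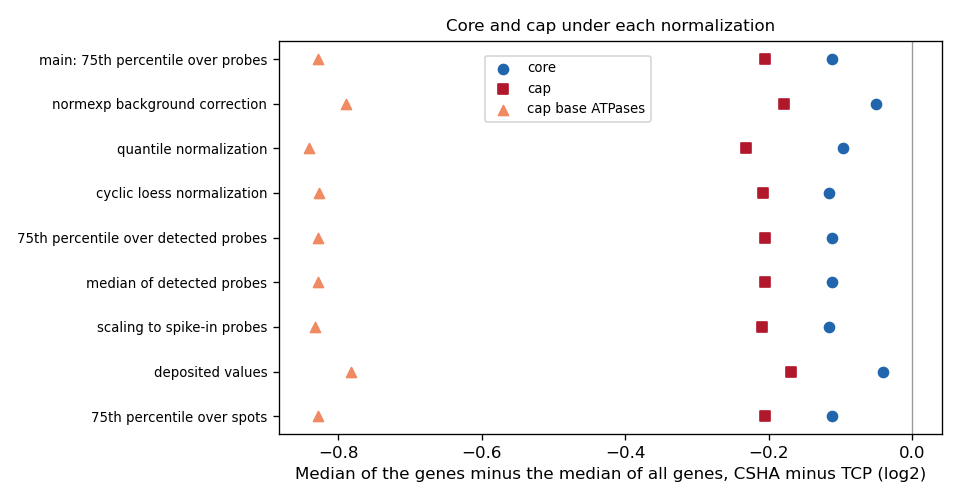
Medians of the core, the cap and the cap ATPases on CSHA against TCP, each minus the median of all genes (x axis, log2), under 9 ways to normalize the arrays (rows). The order from left to right is ATPases, cap and core in every row. Rows that only shift each array by a constant nearly repeat the main row by construction.

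The genes around the proteasome were read from lists of pathway members. ADRM1, a ubiquitin receptor of the cap base whose symbol lies outside the rule, had levels of 3.43 on TCP, 3.099 on CS and 2.48 on CSHA. Its difference of -0.95 ± 0.06 on CSHA was 1.94-fold, while PSMD2 and PSMD4, the ubiquitin-binding subunits within the rule, were nearly level. Of 11 measured subunits and partners with other symbols, 2 were at least 1.5-fold lower on CSHA, where 11.2% of all genes were so. They were ADRM1 and the proteasome-associated PITHD1, the latter with levels of 0.73, 0.42 and -0.15. TXNL1, a thioredoxin-like protein of the cap, was highest, with differences of 0.30 ± 0.05 on CS and 0.28 ± 0.06 on CSHA. SEM1, the small lid subunit, and UBE3C, a ligase at the cap, were within 2 spot SDs of TCP on both membranes.

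NFE2L1, the factor that raises proteasome genes, had levels of 3.79, 3.76 and 3.68 and lay within 2 spot SDs of TCP. The 1 named probe of NFE2L2 was not well above background on any array. Probes without a gene name could include others of NFE2L2, so this does not show that the gene was silent. Of the 8 measured genes of this axis, MAFK, a small Maf partner, was lowest with levels of 1.97, 1.62 and 1.18 and a CSHA difference of -0.80 ± 0.07. SYVN1, the ligase that directs NFE2L1 to degradation, had 2.71, 2.59 and 3.23, and was 1.55-fold higher on CSHA than on CS. It was the 1 gene of the list past 1.5-fold in that direction, where 7.68% of all genes were so. DDI2, the protease that cleaves NFE2L1, was 0.16 ± 0.16 above TCP on CS, the highest of the list there and within the spread among spots. UBA1, the main ubiquitin-activating enzyme, had levels of 3.93, 3.68 and 2.44. It was 2.81-fold lower on CSHA than on TCP, while UBA6, the other activating enzyme, was higher by 0.47 ± 0.17. The ubiquitin genes UBB and RPS27A differed from TCP on CSHA by -0.25 ± 0.06 and 0.24 ± 0.06. Among shuttles that bring substrates to the cap and cofactors of the segregase, NSFL1C was lowest on both membranes, with levels of 1.55, 1.28 and 0.86. RAD23B was highest on CS, with 0.21 ± 0.06. The second probes of NSFL1C and RAD23B had the opposite signs, with 0.16 and -0.0823 on CS.

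The COP9 signalosome, a complex related to the lid that acts on cullin ligases, was also divided. Its median was 0.04 on CS and -0.10 on CSHA, where the median of all genes was 0.04 and 0.13. At least 1.5-fold lower on CSHA were 3 of 9 genes, against 11.2% of all genes. COPS7A had levels of 1.83, 1.80 and 0.66, and so was lower on CSHA alone. GPS1 had levels of 4.06, 3.78 and 2.90, and was lower on both membranes. COPS8 had levels of 2.13, 1.96 and 1.53 at its brightest probe, while its other probe gave 0.22 ± 0.17 for CSHA minus TCP. COPS2 was the highest, with levels of 3.65, 4.13 and 3.96 and differences of 0.48 ± 0.05 and 0.31 ± 0.06.

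Of the 6 genes that carry only the letters of a proteasome gene, PSMC3IP, a factor of meiotic recombination, had levels of 1.85, 1.55 and 1.06 and was 1.73-fold lower on CSHA than on TCP. PSME3IP1, which binds the PSME3 activator, had levels of 1.68, 1.83 and 1.84. Among the noncoding RNAs, PSMA3-AS1 was level with a CSHA difference of -0.01 ± 0.17, PSMD6-AS2 had levels of -1.02, -1.33 and -1.51, PSMG3-AS1 had -1.80, -1.63 and -2.12, and PSMD7-DT was not well above background on any array.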

How the data were processed

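Total RNA of HT29 on TCP, CS and CSHA was hybridized to 1 array each. The authors deposited scanner files with the intensity of each spot and its flags, not normalized between arrays, and a table of log2 values. Per the file headers, the software was Feature Extraction 10.7.3.1 and the design used hg19, while the methods name another version. By the methods, raw signals were floored and shifted by the 75th percentile. The deposited log2 values matched the shifted median signal in every difference (correlation 1.0), without background correction. They were also centred per spot, on a reference that is not stated, and their column medians were 0.013, -0.129 and 0.0427 on TCP, CS and CSHA. No column was left unused (0 without a sample).

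Here the processed signal was given a floor of 1, which changed no spot as the lowest was 4.25, and log2 values were shifted by the 75th percentile over non-control probes. Outlier spots were dropped, and repeated spots were averaged per probe. Accessions were matched to RefSeq symbols (GRCh38.p14) for 30004 of 50599 probes (59.3%). The brightest probe stood for a gene. A comparison required a signal well above background on at least 1 array of the pair, and gave a bound where the other array lacked it. The array number limits the precision, and no saturated spot was found (0). With 1 array per substrate, size rules of 1.5-fold and 2-fold took the place of a test. Differences were set beside the spread among probes printed at 10 spots, scaled to the number of spots and the level. The calculation was tested on simulated data.

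Members, lists and the naming rule were chosen with earlier results of these data known. Full values were given for members 1.5-fold different, the highest and lowest of each class, the catalytic, ubiquitin-binding and deubiquitinating subunits, and members whose probes differ in sign beyond the spread among spots. From the other lists, genes 1.5-fold different and the highest and lowest were named, and further genes were named after their values were seen. Some genes that this rule selects are not reported here. Alternatives were normexp with an offset of 50 on the median signal, quantile and cyclic loess normalization, other shifts, spike-in scaling, the mean over probes, other filters and the deposited values. The 75th percentile over spots and the second brightest probe were chosen after seeing the data. Computation used Python 3.11.15 with pandas 2.3.3, numpy 2.4.6 and matplotlib 3.10.9, and limma 3.58.1 under R 4.3.3.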

Additional observations from a re-analysis of the deposited data

How the results depend on the processing

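Across the alternatives, 194 of 228 values for core, cap and the counts by fold and 765 of 1043 values for named genes stayed within the limits set for no change. The core median was above the cap median in every setting, by 0.07 to 0.18 for CS minus TCP, by 0.09 to 0.20 for CSHA minus TCP and by 0.01 to 0.05 for CSHA minus CS. Settings that only shift each array by a constant, spike-in scaling included, cannot change this gap. They are counted among the 194 values all the same, so that count overstates the agreement. The upper values of the first and second ranges, 0.18 and 0.20, came from the second brightest probe, a setting chosen after seeing the data. No paired analysis was possible because each substrate had 1 array. Differences between cultures have no error here, dim probes carry more spot error (median SD 0.118 in the dimmest of 5 bins on TCP against 0.0396 in the brightest), and the promoters of 6 genes were not searched.

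The core median on CS was 0.0122 with cyclic loess, and on CSHA it was -0.10 with cyclic loess, -0.0456 with the percentile over detected probes and 0.45 with spike-in scaling. The cap median on CS was 0.037 with normexp, -0.0934 with quantile normalization, -0.11 with cyclic loess and -0.10 with the second probe. On CSHA it was -0.17, -0.19, -0.14 and -0.15 with quantile, cyclic loess, detected probes and the mean over probes, -0.22 with the second probe, and it reversed to 0.36 with spike-in scaling, which moved all genes alike by construction. That scaling gave 10 members at least 1.5-fold higher on CSHA than on TCP, 1 at least 2-fold higher, 3 at least 1.5-fold lower and 0 at least 2-fold lower. Against CS it gave 2 at least 1.5-fold higher and 1 lower. The shares over all genes were not computed with it. The median of all genes was then 0.57 for CSHA minus TCP and 0.46 for CSHA minus CS, where 1.5-fold is 0.585. The counts of higher members therefore cannot be read as a rise of the members. With normexp, the deposited values or the filter on all arrays, PSMB11 no longer passed and 0 members were 1.5-fold higher on CSHA than on TCP or 2-fold higher than on CS. With the filter on all arrays 0 were 1.5-fold higher than on CS. Without a filter 1 member was 1.5-fold higher on CS and 1 was 2-fold higher on CSHA than on TCP. For CSHA minus CS, 1 member was 2-fold lower with normexp, quantile or cyclic loess normalization, against 0.

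Single genes changed sign as follows. With spike-in scaling the CSHA difference from TCP was 0.30 for PSMB1, 0.29 for PSMD2, 0.28 for PSMD9 and 0.20 for PSMG3. With the mean over probes it was -0.0715 for PSMA1 and -0.46 for PSMF1, and on CS it was -0.0837 for PSMF1 and 0.0498 for COPS8. With the second probe the CSHA differences were -0.36 for PSMA1, -0.0028 for PSMD5, -0.52 for PSMF1, 0.22 for COPS8, 0.0847 for NSFL1C and -0.035 for RAD23B. On CS the second probe gave 0.0641 for PSME4, -0.39 for PSMF1, 0.27 for COPS8, 0.16 for NSFL1C and -0.0823 for RAD23B. The cause of these changes was not tested.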
